A study of Homo sapiens with 15 samples.

Results

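The integrated stress response is a route by which cells slow the start of translation and switch on a gene programme when amino acids run short, unfolded proteins accumulate or mitochondria fail. Several kinases phosphorylate the initiation factor eIF2alpha, bulk protein synthesis falls, and the mRNA of the transcription factor ATF4 is translated more efficiently, so that the amount of ATF4 protein is set largely at translation rather than at the level of its mRNA. ATF4 then pairs with partners such as the C/EBP proteins and turns on genes for amino acid supply, redox defence, feedback control and, when stress lasts, cell death. Its mRNA targets are therefore often read as an account of how active the pathway is, although p53, AP-1 and other factors also act on some of them.

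The 10 genes described here were ATF4, DDIT3, CEBPB, TRIB3, PPP1R15A, DDIT4, ASNS, CHAC1, INHBE and STC2, out of 47634 gene identifiers in the count tables. They were chosen by the counts themselves, because CHAC1 and INHBE were higher after Tranilast and cisplatin than after cisplatin alone, so that difference is given below as a description with no test. All the libraries came from IGROV-CP20, a human ovarian cancer cell line selected for resistance to the platinum drug cisplatin. Untreated cells were compared with cells given 50 µM cisplatin for 24 h, and with cells held for 24 h in 10 µM Telmisartan, Tranilast or Amphotericin B before the same cisplatin exposure. Telmisartan is an angiotensin receptor blocker, Tranilast an anti-allergic agent and Amphotericin B an antifungal that binds membrane sterols. Each of the 5 conditions had 3 biological replicates, giving 15 libraries of QuantSeq, a method that reads the 3′ ends of polyadenylated transcripts. No library had a drug without cisplatin, so an effect of a drug alone and an effect of the drug on the response to cisplatin cannot be told apart. The groups also describe a single resistant line, without its sensitive parent.

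The libraries held 1510620 to 3517041 counts, and those with Amphotericin B were the shallowest, with 1510620 to 1872639. Mitochondrial ribosomal RNA made up 1.79% to 2.20% of the counts in untreated cells and 2.10% to 2.53% with Tranilast and cisplatin, but 3.41% to 13.7% with cisplatin alone, 3.61% to 12.9% with Telmisartan and 12.3% to 14.8% with Amphotericin B. Over all genes, Telmisartan replicate 3 differed from its group with a chi-square per degree of freedom of 37.8 and 44.1, and cisplatin replicate 1 from its group with 26.4 and 43.1, where the other pairs of replicates gave 2.24 to 8.07. Cisplatin replicate 3 and Telmisartan replicate 3 had the lowest mitochondrial shares of their groups. The epithelial keratin KRT18 was counted 182 to 463 times per library and the epithelial adhesion gene EPCAM 14 to 163 times. PAX8, WT1 and MUC16, other markers of ovarian carcinoma, had 0 to 4 counts in each library. Of the markers of other cell types, the T cell gene CD3E had no count in any library and the monocyte gene CD14 had at most 4. The liver gene ALB had 1 to 19 counts, and the fibroblast gene COL1A1 was at 7.21 ± 1.24 CPM (counts scaled to library size; mean ± SD, n = 3) in untreated cells, 21.0 ± 5.79 with cisplatin alone and 22.8 ± 9.11 with Tranilast. The leukocyte gene PTPRC went the other way, at 70.0 ± 5.45 CPM in untreated cells, 16.6 ± 8.59 with Tranilast and 7.05 ± 7.01 with cisplatin alone. The summed level of the list of other cell types was 86.0 to 97.3 CPM in untreated, 47.2 to 54.3 CPM in Tranilast and 18.1 to 47.3 CPM in the remaining libraries. That sum was scaled to library totals only, whereas the values of PTPRC and COL1A1 also carry the TMM scaling described below. The part of that list, and of mitochondrial RNA, in the results below was not tested apart from a fit that carried the mitochondrial share as a covariate.

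The promoters of these genes are known for short elements through which ATF4 and its relatives act, and the sequences are shown for the members whose upstream window held the letters of one of them. RefSeq (GRCh38.p14) gave windows of 250 bases before the transcription start for 9 of 10 members, 15 windows in all, and INHBE was not matched. The patterns looked for on both strands were TGATGNAA, the C/EBP-ATF response element, and TGACGTCA, the cAMP response element bound by CREB and ATF factors, which share no complete match. TGATGNAA was present in 3.14% of all 35116 promoter windows and in those of ASNS and CHAC1. TGACGTCA was present in 1.65% of all windows and in that of PPP1R15A. Capitals mark the match in each sequence, and positions count back from the base just before the start, which is -1.
ASNS, chr7:97872409-97872658, minus strand: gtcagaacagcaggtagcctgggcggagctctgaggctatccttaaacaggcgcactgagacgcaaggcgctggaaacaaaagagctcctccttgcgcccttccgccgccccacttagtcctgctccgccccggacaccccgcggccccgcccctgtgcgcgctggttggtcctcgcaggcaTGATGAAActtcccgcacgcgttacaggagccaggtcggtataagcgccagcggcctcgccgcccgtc
CHAC1, chr15:40953221-40953470, plus strand: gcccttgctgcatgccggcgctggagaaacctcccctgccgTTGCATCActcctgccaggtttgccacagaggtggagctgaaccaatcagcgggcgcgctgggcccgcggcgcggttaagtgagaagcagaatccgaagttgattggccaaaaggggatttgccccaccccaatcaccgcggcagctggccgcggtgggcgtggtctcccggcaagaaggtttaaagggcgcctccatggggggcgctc
PPP1R15A, chr19:48872171-48872420, plus strand: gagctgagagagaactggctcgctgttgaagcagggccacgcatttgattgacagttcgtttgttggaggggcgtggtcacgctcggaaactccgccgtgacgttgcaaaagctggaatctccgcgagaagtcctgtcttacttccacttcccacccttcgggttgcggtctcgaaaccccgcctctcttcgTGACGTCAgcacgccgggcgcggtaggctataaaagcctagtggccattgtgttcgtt
In ASNS the element lay at positions -68 to -61 and read TGATGAAA on the strand of the gene. In CHAC1 it lay at -209 to -202, on the opposite strand, where it read TGATGCAA. The palindrome of PPP1R15A lay at -58 to -51. These are matches of letters only, and no binding was measured.

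Levels are given for each library as CPM after TMM scaling, which sets the libraries to a common level of the bulk of genes, in the order of replicates 1, 2 and 3. All 10 genes passed the filter on low counts. The transcription factor ATF4 itself was at 1468, 1592 and 1639.9 CPM in untreated cells and at 894, 591 and 1389.7 CPM with cisplatin alone. It was at 1208, 1327 and 1438 CPM with Telmisartan, 1668, 1829 and 1541 CPM with Tranilast and 1608, 1505 and 1129 CPM with Amphotericin B. All libraries with cisplatin alone or Telmisartan were below the lowest untreated one, cisplatin replicates 1 and 2 by the widest margin, while adjacent groups in the order of means overlapped.

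DDIT3 encodes CHOP, the factor of the pathway linked to cell death, and its libraries separated far more. It stood at 185, 179 and 168 CPM in untreated cells and at 56.0, 26.5 and 71.9 CPM with cisplatin alone. With Telmisartan the values were 69.9, 75.1 and 124 CPM, with Amphotericin B 93.9, 105 and 103 CPM and with Tranilast 155, 154 and 141 CPM. The order of means was untreated, Tranilast, Amphotericin B, Telmisartan and cisplatin alone, and untreated, Tranilast and Amphotericin B libraries did not overlap one another. DDIT3 overlaps MARS1, the methionyl-tRNA synthetase gene, on the opposite strand. MARS1 was also higher in untreated cells, at 281 ± 16.4 CPM, than with cisplatin alone, at 141 ± 45.4 CPM (n = 3 each), and because the strand setting of the counting was not given in the sources used here, reads of the pair may not be fully separated.

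CEBPB, a C/EBP factor that can dimerize with ATF4, was at 165, 124 and 151 CPM in untreated cells and 48.7, 41.2 and 108 CPM with cisplatin alone. It was at 85.2, 60.2 and 137 CPM with Telmisartan, 51.2, 75.4 and 74.5 CPM with Amphotericin B and 150.0, 147 and 150.3 CPM with Tranilast. The Tranilast libraries lay inside the range of the untreated ones, whereas the third replicates with cisplatin and Telmisartan were the highest of their groups.

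TRIB3, a pseudokinase that acts in feedback by restraining ATF4, was at 117, 89.8 and 103 CPM in untreated cells, 29.7, 18.6 and 50.4 CPM with cisplatin alone and 36.2, 32.6 and 69.9 CPM with Telmisartan. It was at 19.9, 48.9 and 19.4 CPM with Amphotericin B and 98.6, 101 and 109 CPM with Tranilast. The Tranilast libraries lay inside the untreated range and those of the other 3 treatments below it. PPP1R15A encodes GADD34, which brings a phosphatase to eIF2alpha and lets translation resume, and its order was different. Its values were 55.5, 46.0 and 51.2 CPM in untreated cells, 57.1, 50.0 and 59.6 CPM with cisplatin alone and 61.4, 61.3 and 63.0 CPM with Tranilast. They were 80.6, 73.5 and 61.1 CPM with Telmisartan and 91.0, 81.0 and 85.0 CPM with Amphotericin B, and the 3 Amphotericin B libraries lay above the other 12.

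Among the effector genes, DDIT4, which encodes REDD1, an inhibitor of mTORC1, was at 341, 301 and 334 CPM in untreated cells, 87.4, 37.8 and 150.1 CPM with cisplatin alone and 138, 131 and 259 CPM with Telmisartan. It was at 80.4, 161 and 96.1 CPM with Amphotericin B and 323, 345 and 335 CPM with Tranilast, the latter overlapping untreated cells and no other group. For ASNS, the asparagine synthetase gene, the Tranilast libraries stood between untreated and all others, as they did for DDIT3. ASNS was at 1025, 957 and 1066 CPM in untreated cells and at 553, 679 and 624 CPM with Tranilast. With cisplatin alone ASNS was at 409, 375 and 535 CPM, with Telmisartan at 334, 296 and 460.2 CPM and with Amphotericin B at 294, 385 and 192 CPM.

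CHAC1 encodes an enzyme that degrades glutathione and is among the most responsive targets of the ATF4-CHOP route. It was at 137, 137 and 129 CPM in untreated cells, 20.7, 10.8 and 62.0 CPM with cisplatin alone and 39.3, 51.4 and 121 CPM with Telmisartan. It was at 26.3, 39.3 and 12.7 CPM with Amphotericin B and 144, 178 and 153 CPM with Tranilast, where all 3 libraries were above every untreated one. INHBE encodes the beta E chain of the activin family and rested on few counts. It was at 43.0, 33.7 and 35.9 CPM in untreated cells and 29.8, 33.8 and 39.0 CPM with Tranilast, but at 3.36, 1.96 and 12.7 CPM with cisplatin alone, that is 6, 4 and 32 counts. With Telmisartan INHBE was at 1.53, 4.42 and 20.1 CPM, or 3, 8 and 73 counts, and with Amphotericin B at 3.56, 7.22 and 0 CPM, or 5, 9 and 0 counts, the last of which allows up to 3 counts. STC2, the secreted glycoprotein stanniocalcin 2, was at 208, 196 and 215 CPM in untreated cells, 57.1, 38.8 and 133 CPM with cisplatin alone and 81.1, 81.7 and 157 CPM with Telmisartan. It was at 36.3, 77.0 and 44.7 CPM with Amphotericin B and 217, 213 and 263 CPM with Tranilast, and none of the other groups reached the untreated range.

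**Figure D1:**
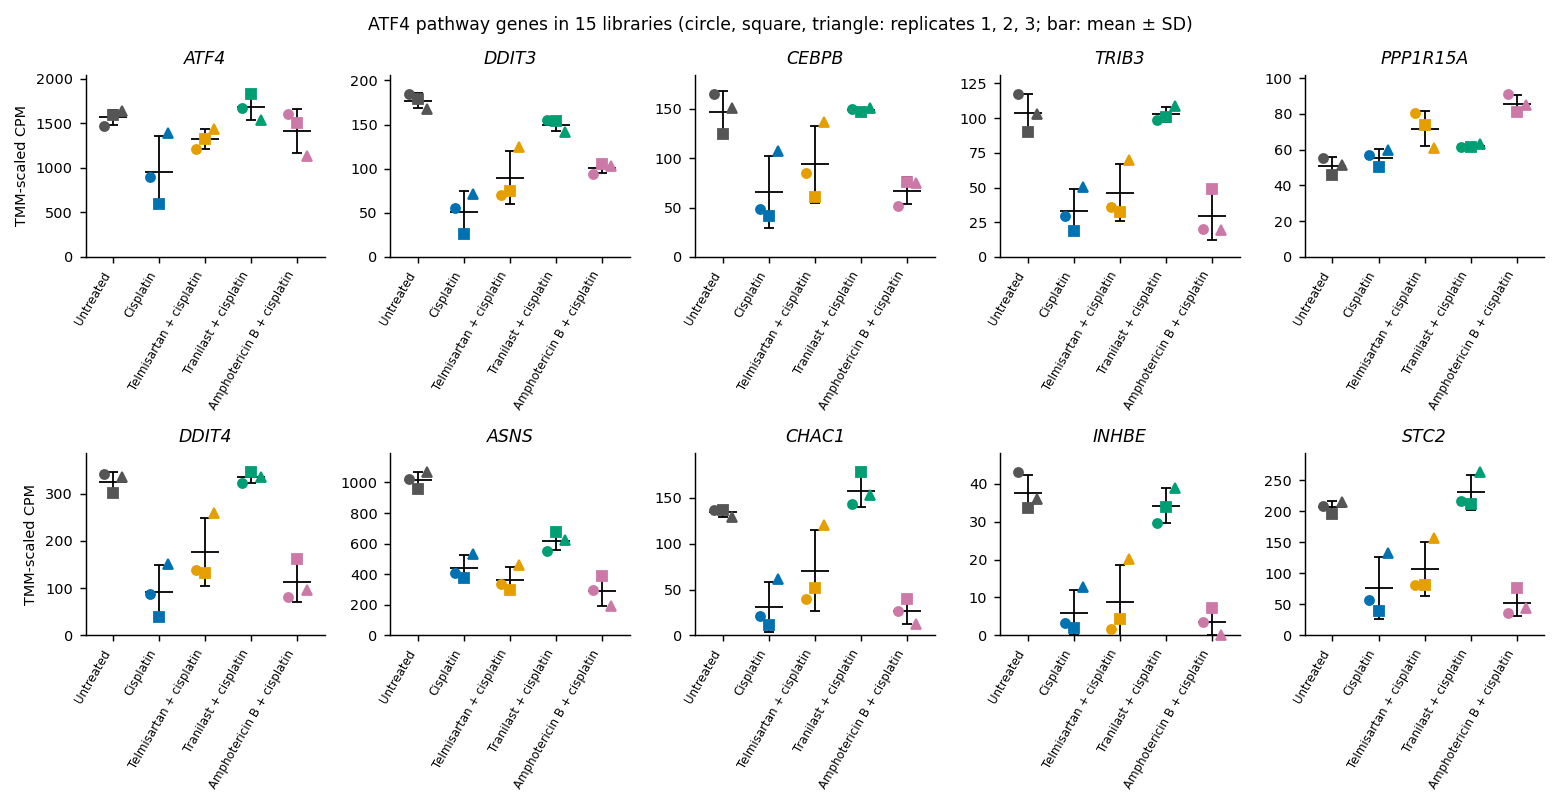
TMM-scaled CPM of the 10 genes (vertical axes, linear from 0, 1 scale per gene) in the 5 conditions; symbols are replicates 1 to 3 and bars the mean ± SD of 3 libraries, cut at 0. For DDIT3, TRIB3, DDIT4, CHAC1, INHBE and STC2 every untreated and Tranilast library is above all the others, while Amphotericin B libraries are the highest for PPP1R15A. The share of all genes with these patterns was not computed. The contrast of Tranilast with cisplatin alone chose the set, so nothing is read from how many genes share them.

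The first comparison asked what cisplatin alone did to the pathway. ATF4, DDIT3, CEBPB, TRIB3, DDIT4, ASNS and STC2 fell, which is 7 of the 8 members tested, whereas 23.6% of the 11113 genes tested fell in the same comparison. DDIT4 fell by 1.82 ± 0.36 on the log2 scale (log2 fold change ± SE), a level 3.53-fold lower, with an adjusted p of 0.000739 by edgeR's quasi-likelihood test. DDIT3 fell 3.42-fold (adjusted p = 8.01e-05) and TRIB3 3.10-fold (adjusted p = 0.00126). STC2, ASNS and CEBPB fell 2.68-, 2.31- and 2.21-fold, with adjusted p-values of 0.00398, 0.000615 and 0.00666. ATF4 had the smallest fall, 1.63-fold, with an adjusted p of 0.0282. PPP1R15A did not pass, at 0.13 on the log2 scale (95% interval -0.22 to 0.48), and its value was -0.22 when libraries were scaled by size only. CHAC1 and INHBE, whose cisplatin libraries were part of their choice, were not tested, and their log2 fold changes were -2.08 and -2.55. In a bulk sample, fewer cells with a transcript and less of it per cell cannot be told apart. With the mitochondrial share as a covariate 4 of the 8 members passed, DDIT3, TRIB3, DDIT4 and ASNS. Cisplatin replicate 3 had the highest level of its group for all 10 members, so leaving it out lowers the cisplatin means. Without it and Telmisartan replicate 3 all 7 again passed, with ATF4 at -1.08 on the log2 scale, and no support is read from that fit. The call of ATF4 was lost without cisplatin replicate 1 or 2, at -0.68 and -0.46, without untreated replicate 2 or 3 and in a fit of the 6 libraries alone.

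Tranilast before cisplatin was then set beside cisplatin alone. For each of the 10 members the 3 Tranilast libraries were above the 3 with cisplatin alone, as were those of 21.4% of all genes tested, and since this contrast chose the set, nothing is read from that count. The log2 fold changes were 2.42 for INHBE, 2.31 for CHAC1, 1.86 for DDIT4, 1.63 for TRIB3, 1.58 for STC2 and 1.54 for DDIT3. For CEBPB, ATF4, ASNS and PPP1R15A they were 1.17, 0.81, 0.49 and 0.15. The spread among members was wide, with INHBE and CHAC1 at the upper end and PPP1R15A at the lower. Cisplatin replicate 3 had the highest level of its group for all 10 members and for 34.2% of all genes with a mean of at least 3 on the log2 CPM scale, and without it and Telmisartan replicate 3 the difference of CHAC1 was 3.35 and that of INHBE 3.69. Without cisplatin replicate 1 they were 2.10 and 2.16. With the mitochondrial share as a covariate the differences were smaller for 9 of the 10 members, at 1.26 for CHAC1, 0.76 for INHBE, 0.43 for CEBPB and 0.08 for ASNS.

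Against untreated cells the libraries with Tranilast and cisplatin could be tested for the 8 members other than CHAC1 and INHBE. None passed by edgeR, against 8.1% of all genes tested in either direction, and DESeq2 called 1 and limma-voom 0. An unadjusted p under 0.05 was found for 1 of the 8, and for 2373 of the 11113 genes tested. As a share of the untreated mean, the Tranilast mean was 107% for ATF4, 102% for CEBPB, 99.5% for TRIB3, 103% for DDIT4, 112% for STC2 and 84.8% for DDIT3. The intervals still left room for changes, for example -0.69 to 0.68 on the log2 scale for TRIB3 and -0.55 to 0.88 for STC2. ASNS was the exception in size. Its mean was 60.9% of untreated, its log2 fold change -0.72 ± 0.23 and its adjusted p 0.0662, while the 3 Tranilast libraries lay below the 3 untreated. A fit of the 6 libraries alone, which did not share the wide spread of the cisplatin and Telmisartan groups, called 1869 genes higher and 2119 lower, and with them ASNS and PPP1R15A, at -0.69 and 0.31. CHAC1 and INHBE, not tested, had means of 118% and 91.1% of untreated.

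Amphotericin B before cisplatin left most of the set low. Of the 10 members, all tested against untreated cells, 8 fell and PPP1R15A rose, where 23.3% of all genes fell and 17.6% rose. INHBE fell 10.5-fold (log2 -3.40 ± 0.75, adjusted p = 0.00183), on 0 to 9 counts with Amphotericin B, and CHAC1 5.17-fold (adjusted p = 0.00133). INHBE passed the filter on low counts through the untreated and Tranilast libraries, where it was high. Its fall was thus favoured in advance, and no support is read from it. STC2 and TRIB3 fell 3.93- and 3.54-fold, ASNS by 1.81 on the log2 scale, DDIT4 2.89-fold, CEBPB 2.19-fold and DDIT3 1.76-fold, with adjusted p-values between 6.42e-05 and 0.0201. The call of DDIT3 was lost without untreated replicate 1 or Amphotericin B replicate 1 or 3, and that of CEBPB without Amphotericin B replicate 1. The ATF4 mRNA did not pass, at -0.15 (95% interval -0.67 to 0.37) in the same libraries, although with scaling by library size only it passed, at -0.71 (adjusted p = 0.0491). PPP1R15A rose 1.68-fold (adjusted p = 0.00206), but with that scaling its log2 fold change was 0.19 and did not pass. The same scaling moved the median of all genes from -0.19 to -0.75 on the log2 scale in this comparison, with 887 genes higher and 4804 lower instead of 1961 and 2587. The mitochondrial share was 12.3% or more in all 3 libraries, and with it as a covariate only ASNS passed, at -1.07.

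Compared with cisplatin alone, Amphotericin B libraries were higher in 2 of the 8 members tested, DDIT3 and PPP1R15A, where 4.21% of all genes were higher. DDIT3 rose 1.95-fold (adjusted p = 0.0315) and PPP1R15A 1.54-fold (adjusted p = 0.0253). Both calls were lost with scaling by library size only, in the fit of 6 libraries and without cisplatin replicate 2 or Amphotericin B replicate 1 or 3. That of DDIT3 was also lost without Amphotericin B replicate 2. That of PPP1R15A was also lost without cisplatin replicate 3, without the filter and with the mitochondrial share as a covariate. ATF4 was at 0.56 and ASNS at -0.60, neither past the threshold, and the values of CHAC1 and INHBE, not tested, were -0.29 and -0.85.

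With Telmisartan before cisplatin fewer members passed. Against untreated cells DDIT3, TRIB3, ASNS and INHBE fell and PPP1R15A rose, 5 of 10 members, where 15.8% of all genes fell and 12.8% rose. ASNS fell 2.79-fold (adjusted p = 0.000258), INHBE 3.80-fold (adjusted p = 0.0176), TRIB3 2.19-fold (adjusted p = 0.0183) and DDIT3 1.95-fold (adjusted p = 0.0107). No support is read from the fall of INHBE here either, because of the way it passed the filter. PPP1R15A rose 1.40-fold (adjusted p = 0.0331). That call was lost with scaling by library size only, at 0.21 on the log2 scale, without the filter and with the mitochondrial share as a covariate. It was also lost without any 1 of the untreated replicates and without Telmisartan replicate 1 or 2. STC2, DDIT4, CHAC1 and CEBPB did not pass, with log2 fold changes of -0.94, -0.88, -0.90 and -0.63, nor did ATF4, at -0.24. The number of calls changed with the libraries used. Telmisartan replicate 3 was the highest of its group for 9 of the 10 members and for 47.6% of all genes with a mean of at least 3 on the log2 CPM scale. Without Telmisartan replicate 3, 9 members passed and CHAC1 was at -1.57, INHBE at -3.66 and STC2 at -1.34, whereas without Telmisartan replicate 1 or replicate 2 a single member passed. Without untreated replicate 1 or 3 the number was 2 or 3, without cisplatin replicate 3 it was 8, and with the mitochondrial share as a covariate 1. The share of all genes called in these fits is not set beside these counts. No change particular to the members is read from them, and the cause was not tested.

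Between Telmisartan and cisplatin alone none of the 8 members tested passed by edgeR, where 0% of all genes did, and none by DESeq2 or limma-voom. An unadjusted p under 0.05 was found for 3 of the 8, and for 1150 of the 11113 genes tested. DDIT4 and DDIT3 had the largest differences among those tested, 0.94 (95% interval 0.19 to 1.69) and 0.81 (0.24 to 1.38), and with the mitochondrial share as a covariate these 2 passed. CHAC1, not tested, was at 1.17, and at 0.50 without Telmisartan replicate 3 and 2.21 without cisplatin replicate 3. INHBE, not tested, was at 0.62, and at -1.12 and 1.90 without these libraries. Amphotericin B and Telmisartan did not differ past the threshold in any of the 10 members by edgeR, DESeq2 or limma-voom, again with 0% of all genes called by edgeR. An unadjusted p under 0.05 was found for 2 of the 10 members, near the share over all genes, 2283 of 11113. The intervals were wide, -2.51 to -0.42 for CHAC1 and -1.82 to -0.25 for STC2 on the log2 scale, so the data do not show the groups to be alike.

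**Figure D2:**
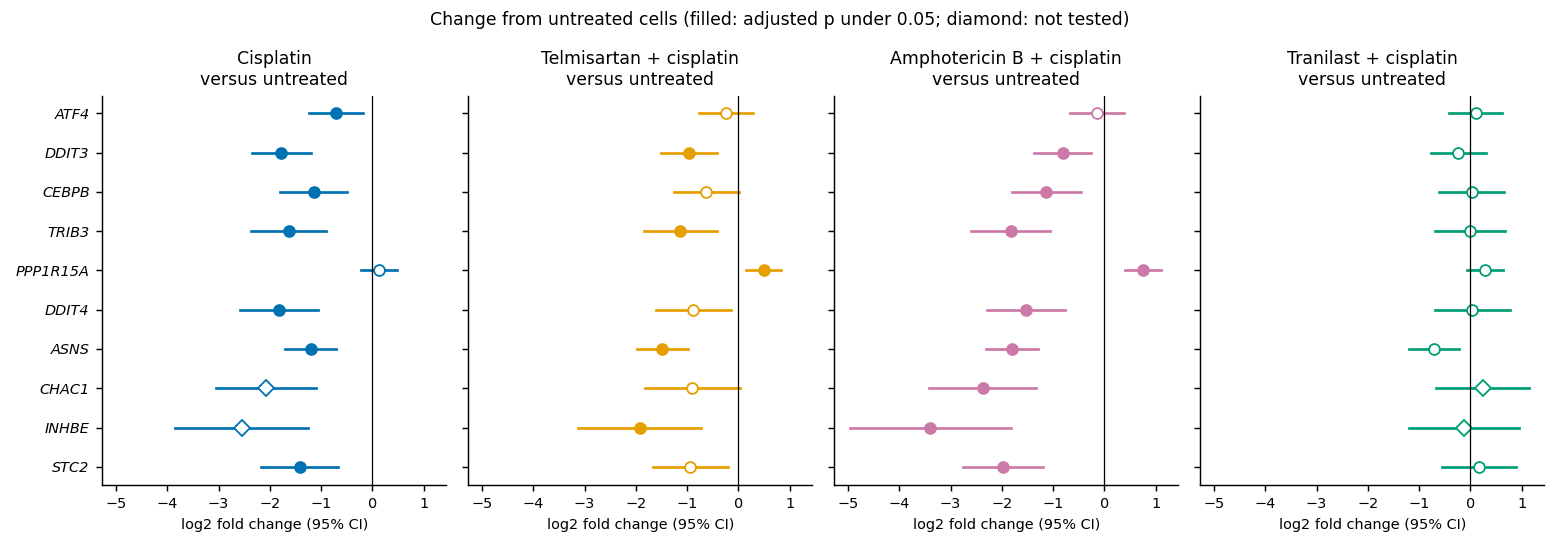
Log2 fold change from untreated cells (horizontal axes) of the 10 genes after cisplatin alone or after each drug and cisplatin, with 95% intervals from the fit of all 15 libraries. Filled circles passed an adjusted p of 0.05, open circles did not and diamonds were not tested. With cisplatin 7 genes were past the threshold, with Telmisartan 5, with Amphotericin B 9 and with Tranilast none. The counts for Telmisartan and Amphotericin B include INHBE, from which no support is read.

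The level of the 10 genes also varied among replicates, and in a common direction. Taken as the median over members of log2(CPM + 1) minus the untreated mean, cisplatin replicates 1, 2 and 3 stood at -1.70, -2.39 and -0.97, and those of Telmisartan at -1.33, -1.31 and -0.36. Amphotericin B replicates stood at -1.89, -1.03 and -1.96, and those of Tranilast between 0.02 and 0.05. In each of the cisplatin, Telmisartan and Amphotericin B groups the library nearest to untreated had the smallest mitochondrial share, at 3.41%, 3.61% and 12.3%. Cisplatin replicate 2, which was lowest for the 10 genes, had a share of 5.61%, so the order of libraries by the 2 measures was not the same. The share moved with the groups as well, and its part in the group differences was not tested beyond the covariate fits.

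**Figure D3:**
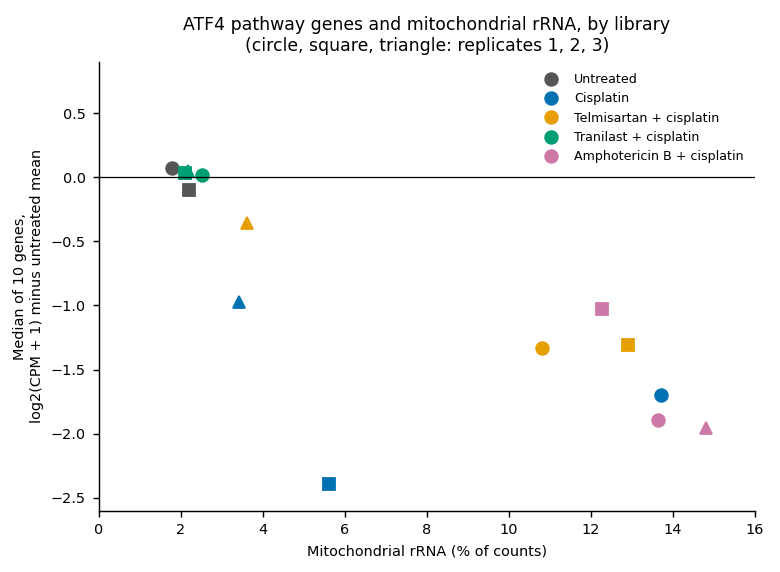
Each point is 1 library, with the mitochondrial ribosomal RNA as a percentage of counts (horizontal axis) and the median over the 10 genes of log2(CPM + 1) minus the untreated mean (vertical axis); colours are the conditions and symbols replicates 1 to 3. Untreated and Tranilast libraries lie together near 0 and 2%, and the third replicates of cisplatin and Telmisartan lie between them and the rest.

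Other genes of the pathway were followed in 6 lists. Of all genes tested, 23.6% fell and 21.1% rose from untreated with cisplatin alone, 23.3% and 17.6% with Amphotericin B and 15.8% and 12.8% with Telmisartan. With Tranilast 5.66% fell and 8.1% passed in either direction. Amino acid transporters supply the cell with amino acids, several of them as targets of ATF4. With cisplatin alone 8 of the 10 that passed the filter fell and none rose, and their median log2 fold change was -1.36, where that of all genes was -0.01. SLC38A2 and SLC38A1, glutamine transporters, were at -1.82 and -1.34, and SLC7A1, a cationic amino acid transporter, at -1.73, with adjusted p-values of 3.78e-05, 0.000546 and 0.000592. With Amphotericin B all 10 fell from untreated (median -1.94, all genes -0.19), SLC38A2, with the smallest adjusted p, at -2.20, and with Telmisartan 7 fell (median -1.04, all genes -0.03). With Tranilast and cisplatin none of the 10 passed against untreated cells by edgeR (median -0.13, all genes -0.01), where 8.1% of all genes did. Of the 10, 1 had an unadjusted p under 0.05, as did 2373 of the 11113 genes tested, and SLC38A2 was at -0.73 (adjusted p = 0.0764). In the fit of 6 libraries, which called many more of all genes as given above, 3 fell and 1 rose. With the mitochondrial share as a covariate 4 transporters fell with cisplatin alone, 1 with Amphotericin B and 1 with Telmisartan. Without cisplatin replicate 2 the count with cisplatin alone was 5, and with Telmisartan it was 3 without untreated replicate 1 or Telmisartan replicate 1 and 4 without Telmisartan replicate 2.

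Enzymes of amino acid and one-carbon synthesis, 13 of 14 of which passed the filter, were the next list. Of these, 10 fell with cisplatin alone, 10 with Amphotericin B and 9 with Telmisartan against untreated cells, and none rose. With the mitochondrial share as a covariate 8, 4 and 7 fell and 1, 0 and 2 rose. PSAT1, of serine synthesis, fell by 1.47 on the log2 scale with cisplatin alone (adjusted p = 2.97e-05) and by 1.93 with Amphotericin B (adjusted p = 1.4e-05). BCAT1, a branched-chain aminotransferase, fell by 1.84 with cisplatin alone (adjusted p = 0.000127) and ALDH1L2, a mitochondrial folate enzyme, by 1.94 (adjusted p = 0.000206). With Tranilast a single gene fell against untreated cells, MTHFD1L, at -0.70 (adjusted p = 0.0363), where 5.66% of all genes fell, and the median of the list was -0.34. That call depended on the fit: no gene of the list passed with scaling by library size only or without untreated replicate 1 or 3 or any 1 of the Tranilast replicates, 3 fell without cisplatin replicate 1 or Telmisartan replicate 3, and 6 fell in the fit of the 6 libraries. That last fit also called many more of all genes.

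Of the other ATF4 targets 19 of 21 passed the filter, and 12 fell and 2 rose with cisplatin alone, 13 fell and 1 rose with Amphotericin B, and 9 fell and 1 rose with Telmisartan. The collagen receptor DDR2 was at -2.97, -2.96 and -2.84 in these comparisons, and PCK2, a mitochondrial gluconeogenic enzyme, at -1.15, -1.54 and -1.24. Against untreated cells Tranilast left DDR2 low, at -2.04 (adjusted p = 0.00387), and HMOX1, heme oxygenase 1, high, at 1.17 (adjusted p = 0.00566). These were the 2 genes of the list that passed, where 8.1% of all genes did in either direction. In the fit of 6 libraries, which called many more of all genes, 6 fell and 2 rose. With the mitochondrial share as a covariate 6 genes fell with cisplatin alone, 4 with Amphotericin B and 5 with Telmisartan, and the last count was also 5 without Telmisartan replicate 1 or 2.

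Upstream of ATF4, the genes for eIF2alpha kinases, eIF2 and eIF2B subunits and phosphatase partners had calls in both directions at shares nearer to those of all genes. With cisplatin alone 3 of 21 rose, a smaller share than over all genes, and 7 fell, and the median was -0.09. The 7 became 3 or 4 without any 1 of the untreated replicates, cisplatin replicate 2 or Tranilast replicate 2 or 3, and the 3 became 5 without Telmisartan replicate 3. DNAJC3, which encodes an inhibitor of the kinase PERK, fell by 2.61 (adjusted p = 0.000146) on 4 to 6 counts per cisplatin library, EIF2B1 was at 1.04 (adjusted p = 0.00208) and EIF2AK4, the amino acid sensing kinase GCN2, at -0.94 (adjusted p = 0.0029). With Amphotericin B 5 rose and 5 fell from untreated, close to the shares over all genes, and with scaling by library size only 1 rose and 12 fell. Among those that rose was PPP1CA, a catalytic subunit that works with GADD34, which rose by 1.52 (adjusted p = 0.000231). PPP1CA also passed against cisplatin alone, at 0.81 (adjusted p = 0.0387). There 1 of the 21 genes was higher and 1 lower, near the share over all genes, of which 4.21% were higher. With scaling by library size only, 0 of the list were higher. A link to the rise of PPP1R15A in the same comparison was not tested. With Tranilast DNAJC3 and OMA1, a mitochondrial protease that signals to the pathway, fell by 1.55 and 1.04 from untreated (adjusted p = 0.0101 and 0.0113). These were the 2 calls among the 21 genes, where 8.1% of all genes passed in either direction. Without Tranilast replicate 1 no gene of the list passed there. With scaling by library size only, no gene of this list was higher with cisplatin alone and 9 were lower.

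Among 15 bZIP partners and related factors, 4 rose and 9 fell with cisplatin alone, the former near the share over all genes, and 3 rose and 5 fell with the mitochondrial share as a covariate. JUN, a subunit of AP-1, rose by 2.33 on the log2 scale (adjusted p = 1.81e-05), whereas ATF6 and XBP1, factors of the other 2 branches of the unfolded protein response, were at -2.85 (adjusted p = 1.07e-05) and -2.02 (adjusted p = 6.97e-06). With Tranilast against untreated cells ATF6 was at -1.53 (adjusted p = 0.00395), ATF5, itself a target of ATF4, at -1.04 (adjusted p = 0.0159) and CEBPD at 1.13 (adjusted p = 0.00931). These and XBP1 were the 4 calls among the 15 genes, where 8.1% of all genes passed in either direction. A single gene passed without untreated replicate 3 or Tranilast replicate 1. The genes of the IRE1 and ATF6 branches fell in 7 of 14 cases and rose in 2 with cisplatin alone, with Amphotericin B and with Telmisartan. The share that rose was below that of all genes with cisplatin alone and Amphotericin B and near it with Telmisartan. With Tranilast, too, 7 of the 14 fell against untreated cells (median -0.96, all genes -0.01, 5.66% of all genes lower), whereas none of the 8 members tested did, and the difference between the lists was not tested. HSPA5, the chaperone BiP, was at -2.31 (adjusted p = 8.95e-05), the chaperone HSP90B1 at -2.49 (adjusted p = 0.000178) and SEL1L, of the degradation route of the endoplasmic reticulum, at -2.44 (adjusted p = 0.000417).

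**Figure D4:**
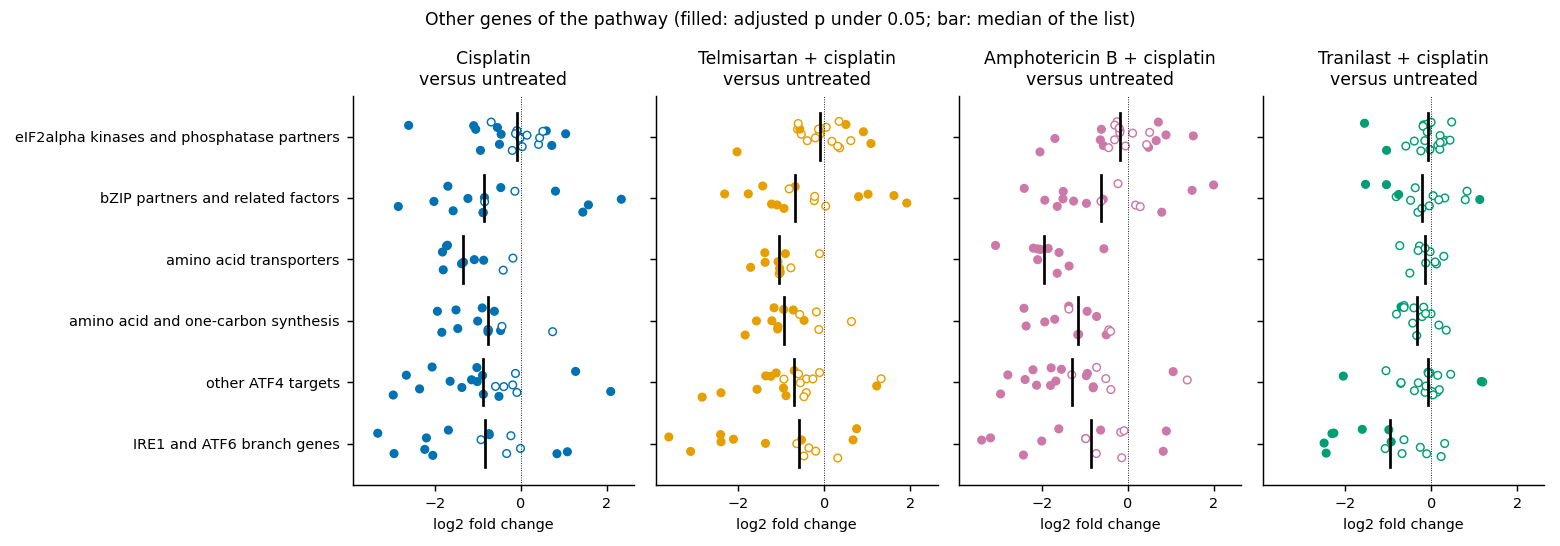
Log2 fold change from untreated cells (horizontal axes) of each gene in 6 lists of the pathway after cisplatin alone or each drug and cisplatin; filled points passed an adjusted p of 0.05 and bars are list medians. Transporters, for example, have medians of -1.36, -1.04, -1.94 and -0.13 from left to right, and the IRE1 and ATF6 branch keeps a median of -0.96 with Tranilast.

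The pattern of CHAC1 over the 15 libraries was compared with that of every gene with a mean of at least 3 on the log2 CPM scale, as a description. Pearson's r was 0.978 for CLIP1, which encodes a microtubule plus-end protein, 0.978 for the chemokine receptor gene CCR1, 0.969 for the neutral amino acid transporter SLC1A4, 0.967 for ENSG00000108264 and 0.967 for SESN2, a stress-induced regulator of mTORC1. Within the set r was 0.96 for STC2, TRIB3 and DDIT4, 0.93 for INHBE, 0.91 for CEBPB, 0.81 for DDIT3, 0.79 for ASNS and 0.78 for ATF4. Of the genes compared, 89.9% had a lower r than ATF4, 90.8% than ASNS, 92.5% than DDIT3 and 98.7% than CEBPB. CHAC1 and INHBE were chosen by the same contrast. PPP1R15A was the only member with a negative value, -0.40. The libraries share conditions, depth differences and the replicates that stood apart, so these values describe the common course of the genes over these samples.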

How the data were processed

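RNA of 15 IGROV-CP20 cultures (5 conditions, 3 biological replicates each per the labels) was read with QuantSeq 3′ libraries. Per the submitters' processing notes STAR 2.3.0, HTSeq and hg19 were used; the annotation and strand setting are not given in the sources used here. The deposited values are raw counts per Ensembl gene. On these counts 1 model of all 15 libraries was fitted with edgeR 4.0.16 in R 4.3.3 (TMM, filterByExpr, quasi-likelihood F test, Benjamini-Hochberg adjustment over 11113 genes, threshold 0.05), checked on simulated counts. Of 26 alternatives (other scalings, filters, libraries and a replicate block, DESeq2 1.42.0 and limma-voom of limma 3.58.1), 2 were added after seeing the data: the mitochondrial share as a covariate, and a fit without 2 libraries.

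The genes and lists were chosen with earlier results of these data known. No member was tested in the contrast of Tranilast and cisplatin with cisplatin alone; CHAC1 and INHBE were tested only in comparisons of the other 3 groups with each other. Every member is named, of each other list at most the 3 genes with the smallest adjusted p past the threshold (2 if none passed), and the 5 genes most like CHAC1. Names came from GENCODE 29 and RefSeq tables of another build, so gene coordinates are not given. The floor of 3 counts equals 0.853 to 1.99 CPM, for counting error only. The study's methods speak, for its data in general, of independent experiments on different days, and the labels give no day.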

Additional observations from a re-analysis of the deposited data

How the results depend on the processing

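The 80 log2 fold changes of single members were recomputed under 26 alternatives, giving 2077 values. Of these 3 reversed a call's sign, all with the added covariate, the mitochondrial share: CEBPB and INHBE with Amphotericin B against untreated were then at 0.37 and 0.53 (from -1.13 and -3.40), and INHBE with Telmisartan at 0.22 (from -1.93). Another 55 changed sign without being past the threshold in either fit or without a test. The share differs between the groups, so the covariate also takes up group differences; the cause was not tested.

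The number of members past the threshold changed as follows. With that covariate it was 4 for cisplatin against untreated (from 7), 1 for Amphotericin B (from 9), 1 for Telmisartan (from 5) and 1 for Tranilast (from 0), and 2 for Telmisartan against cisplatin (from 0). Amphotericin B against cisplatin went from 2 to 0 with library size only and with the 6 libraries of the comparison. Tranilast against untreated gave 1 without the filter, with DESeq2, with the likelihood ratio test and without cisplatin replicate 3 and Telmisartan replicate 3, and 2 with 6 libraries. Telmisartan against untreated gave 8 without the filter and 9 without those 2 libraries. Amphotericin B against Telmisartan gave 4 without the filter. The cause of these changes was not tested. The share of all genes called under the same alternative is not set beside these counts, nor beside those of the 6 lists. A loss or gain particular to these genes is therefore not read from them.

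Leaving out 1 library at a time gave 6 to 7 members for cisplatin against untreated, 0 to 3 for Amphotericin B against cisplatin, 0 to 0 for Telmisartan against cisplatin, 0 to 1 for Tranilast against untreated, 7 to 9 for Amphotericin B against untreated, 1 to 9 for Telmisartan against untreated and 0 to 0 for Amphotericin B against Telmisartan. For Tranilast against untreated the single call, ASNS, appeared without cisplatin replicate 1, Telmisartan replicate 3 or Amphotericin B replicate 3.

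Replicate numbers showed no pairing common to all groups: deviations of libraries with the same number correlated at 0.02 on average (-0.23 to 0.63 over 30 pairs), and 4 of 15 libraries were closest to their own number. Such an average cannot tell whether single libraries shared a day or a run. With a replicate block the counts were 7 for cisplatin, 9 for Amphotericin B, 7 for Telmisartan and 0 for Tranilast against untreated, 2 for Amphotericin B and 0 for Telmisartan against cisplatin, and 0 for Amphotericin B against Telmisartan. INHBE was not fitted in 3 comparisons of 6 libraries because it did not pass the filter there.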
